A study of Homo sapiens with 11 samples.

Results

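The kinesin and dynein motor genes are a set of 36 genes, listed by symbol, out of 59087 genes counted in each of 11 RNA sequencing libraries from the human breast cancer lines BT483 and T47D-TamR. All 36 symbols were found in the count tables, and all 36 passed the filter on low counts in every test. By role, 11 are kinesins of mitosis, 15 are transport motors, 7 are motors of the cilium and 3 are other kinesins. The study lowered nemo-like kinase (NLK), a serine/threonine kinase, or gave tamoxifen, which competes with estradiol for the estrogen receptor. Both lines were first deprived of estrogen for 48 h. In the siRNA arm each line received, at 10 nM for 72 h, a non-targeting control siRNA, the NLK siRNA named type 1, the NLK siRNA named type 2, or the control siRNA together with 0.5 µM tamoxifen. The drug arm held T47D-TamR alone, with the solvent DMSO, with VX-702 at 0.5 µM, or with DMSO and tamoxifen at 0.5 µM. The compound VX-702 is labelled as a drug that targets NLK and is known as an inhibitor of the p38α kinase. BT483 is an estrogen receptor positive line, and T47D-TamR is a T47D derivative that was passaged continuously in tamoxifen until resistant and was also propagated in it, so its libraries without tamoxifen come from cells with a history of the drug. Each of the 11 groups was 1 library from 1 dish. In the tests a second line, siRNA or arm stood in for the missing replicate, so a p-value reflects the spread among these libraries and not among separate cultures of one group.

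Kinesins and dyneins use ATP to move along microtubules. Mitotic kinesins are made anew in each cell cycle, chiefly in G2 and M phase, and separate the spindle poles, align chromosomes and organise the midzone for cytokinesis. Transport motors carry vesicles, endosomes and organelles throughout the cell cycle, most kinesins towards the plus end of the microtubule and cytoplasmic dynein towards the minus end. In the cilium, the kinesin made of KIF3A and KIF3B moves cargo to the tip and the dynein built on DYNC2H1 brings it back. Tumour cells that leave the cell cycle in response to an antiestrogen are known to lose transcripts of the G2 and M phase. In such a bulk sample, fewer cycling cells and less RNA per cycling cell cannot be told apart.

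Promoter sequences are shown for members with contrasting behaviour under tamoxifen, because mitotic genes are known for sharing 2 short promoter elements. TTTGAA is the core of the cell cycle gene homology region, the element through which the DREAM and MuvB complexes act, and CCAAT is bound by the factor NF-Y. RefSeq promoter entries (GRCh38.p14) were matched for 29 of the 36 members; KIF5A, KIF13B, KIFC2, KIFC3, KIF21B, KIF26B and KIF27 had no entry. The search covered the 300 bases from 250 before to 50 after each start on both strands. On the gene's strand a match of the first motif thus reads TTTGAA or, for the opposite strand, its reverse complement TTCAAA. A match of the second reads CCAAT or its reverse complement ATTGG. The motifs can overlap by 1 letter at most. The 150 bases before the start are printed below on the gene's strand, 5′ to 3′, with either motif in capitals.
KIF4A, chrX:70289954-70290103 (+ strand): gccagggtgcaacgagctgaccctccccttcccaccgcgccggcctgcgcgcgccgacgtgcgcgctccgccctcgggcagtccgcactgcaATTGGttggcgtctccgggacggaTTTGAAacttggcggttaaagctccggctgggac
KIF11, chr10:92592980-92593129 (+ strand): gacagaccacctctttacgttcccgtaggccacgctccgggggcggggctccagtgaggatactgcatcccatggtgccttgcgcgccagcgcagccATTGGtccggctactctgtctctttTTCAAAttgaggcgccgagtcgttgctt
KIF18A, chr11:28108157-28108306 (- strand): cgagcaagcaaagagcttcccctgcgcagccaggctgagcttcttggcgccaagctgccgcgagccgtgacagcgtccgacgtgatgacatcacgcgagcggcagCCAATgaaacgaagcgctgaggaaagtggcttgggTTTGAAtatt
KIF18B, chr17:44947774-44947923 (- strand): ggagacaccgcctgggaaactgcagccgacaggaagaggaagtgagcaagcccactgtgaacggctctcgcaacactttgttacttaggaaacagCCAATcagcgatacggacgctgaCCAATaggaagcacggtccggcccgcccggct
KIF24, chr9:34329269-34329418 (- strand): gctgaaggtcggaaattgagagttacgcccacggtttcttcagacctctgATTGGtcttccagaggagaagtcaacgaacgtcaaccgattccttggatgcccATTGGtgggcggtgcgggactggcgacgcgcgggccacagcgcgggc
KIF5B, chr10:32056426-32056575 (- strand): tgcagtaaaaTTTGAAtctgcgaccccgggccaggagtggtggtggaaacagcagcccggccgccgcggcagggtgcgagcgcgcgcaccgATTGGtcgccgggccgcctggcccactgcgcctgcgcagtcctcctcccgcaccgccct
DYNC2H1, chr11:103109276-103109425 (+ strand): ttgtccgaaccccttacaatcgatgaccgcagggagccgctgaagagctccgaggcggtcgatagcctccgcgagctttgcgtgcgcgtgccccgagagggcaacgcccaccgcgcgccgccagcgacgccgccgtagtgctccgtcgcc

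TTTGAA was found in 8 of 11 mitotic kinesin genes (72.7%), in 1 of 10 transport motor genes (KIF5B), in 0 of 6 ciliary motor genes and in 0 of 2 other members. It was found in 18.2% of all 27305 genes of the RefSeq table. KIF20A, KIF22 and KIF2C were the mitotic kinesins without it. CCAAT was found in 9 of 11 mitotic kinesins (81.8%), in 3 of 10 transport motors, in 2 of 6 ciliary motors and in 39.7% of all genes. KIF15 and KIF2C were the mitotic kinesins without it. KIF4A and KIF11 held both motifs upstream of the start, with TTTGAA at −34 and −28 and CCAAT at −58 and −53 from the start. In KIF18B the TTTGAA motif lay just after the start and so outside the printed bases. KIF24, a ciliary motor in this grouping, held 3 CCAAT motifs and no TTTGAA. DYNC2H1 held neither. The mitotic kinesins printed above all held both motifs. Under tamoxifen in BT483 all 11 mitotic kinesins were lower, with or without a match of these exact letters. KIF2C, with neither motif, went from 40.7 to 6.75 CPM, and KIF20A, without TTTGAA, from 51.1 to 6.08 CPM. KIF5B, with both motifs, stood at 263 and 246 CPM. Its TTTGAA lay at −140, whereas in the mitotic kinesins the motif lay between −35 (KIF15) and 30 (KIF20B). Variants of these letters were not searched, so a gene without a match is not shown to lack the element. These matches describe letters in a window and were not tested for binding or for a link with the response.

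Total counts ran from 14637083 to 26915863 per library, so that 3 counts corresponded to 0.111 to 0.205 CPM (counts scaled to the library total). Levels are given as CPM scaled by the trimmed mean of M values (TMM). NLK was lower in all 4 knockdown libraries. It stood at 30 CPM in control BT483 and at 8.51 and 5.41 CPM with types 1 and 2, and at 29.2 CPM in control T47D-TamR and at 10.3 and 12.2 CPM with types 1 and 2 (edgeR log2 fold change over both lines −1.75 ± 0.212 SE, adjusted p = 0.0308). The summed level of 8 luminal epithelial markers was 5700 to 15600 CPM. Markers of other cell types stayed far below it: 7 fibroblast markers summed to 11.8 to 76 CPM, 5 neuronal markers to 27.7 to 93.7 CPM, 6 markers of multiciliated cells to 9.63 to 42.6 CPM, 3 endothelial markers to 0 to 2.84 CPM and 3 leukocyte markers to 0 to 0.238 CPM.

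Tamoxifen lowered every mitotic kinesin of the set in BT483 and left the transport motors near their control level. All 11 mitotic kinesins passed the edgeR test, with log2 fold changes from −3.41 to −1.12 and a median of −2.73. Of the 22 transport and ciliary motors 1 passed, KIF24, and their median was 0.04. In all, 12 of 36 members were called at an adjusted p under 0.05, against 1.49% of all genes tested, and all 12 were lower. The median over all genes tested was 0.00.

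KIF18B, which destabilises astral microtubules at their plus ends, stood at 64.3 CPM in the control library of BT483 and at 6.04 CPM with tamoxifen (log2 fold change −3.41 ± 0.352 SE, edgeR adjusted p = 0.000569). The tamoxifen library thus held 9.4% of the control level (exact 95% interval 7.92 to 11.1%, counting error only). KIF4A, a chromokinesin that works with PRC1 at the central spindle, went from 38.5 to 3.99 CPM (−3.27 ± 0.348, edgeR adjusted p = 0.000537). KIF20A carries the chromosomal passenger complex to the midzone and went from 51.1 to 6.08 CPM (−3.07 ± 0.383, edgeR adjusted p = 0.00322). These 3 kinesins showed the largest falls of the set.

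KIF11, the motor that pushes the spindle poles apart, went from 54.9 to 7.46 CPM, a log2 fold change of −2.88. KIF15, which can hold the spindle bipolar alongside KIF11, went from 18.6 to 2.8 CPM (−2.73). KIF14, a kinesin of cytokinesis, went from 22.9 to 3.13 CPM (−2.87). The minus end motor KIFC1, which clusters extra centrosomes, went from 65.9 to 10.7 CPM (−2.62), and the microtubule depolymerase KIF2C from 40.7 to 6.75 CPM (−2.59). The smaller falls were those of KIF18A, which dampens chromosome movements at the metaphase plate (9.39 to 2.09 CPM, −2.17), KIF20B (26.7 to 6.79 CPM, −1.98) and the chromokinesin KIF22 (107 to 49 CPM, −1.12 ± 0.227, edgeR adjusted p = 0.0196). KIF22 thus kept the highest level of the class in the tamoxifen library, on the CPM scale and per transcript length.

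**Figure D1:**
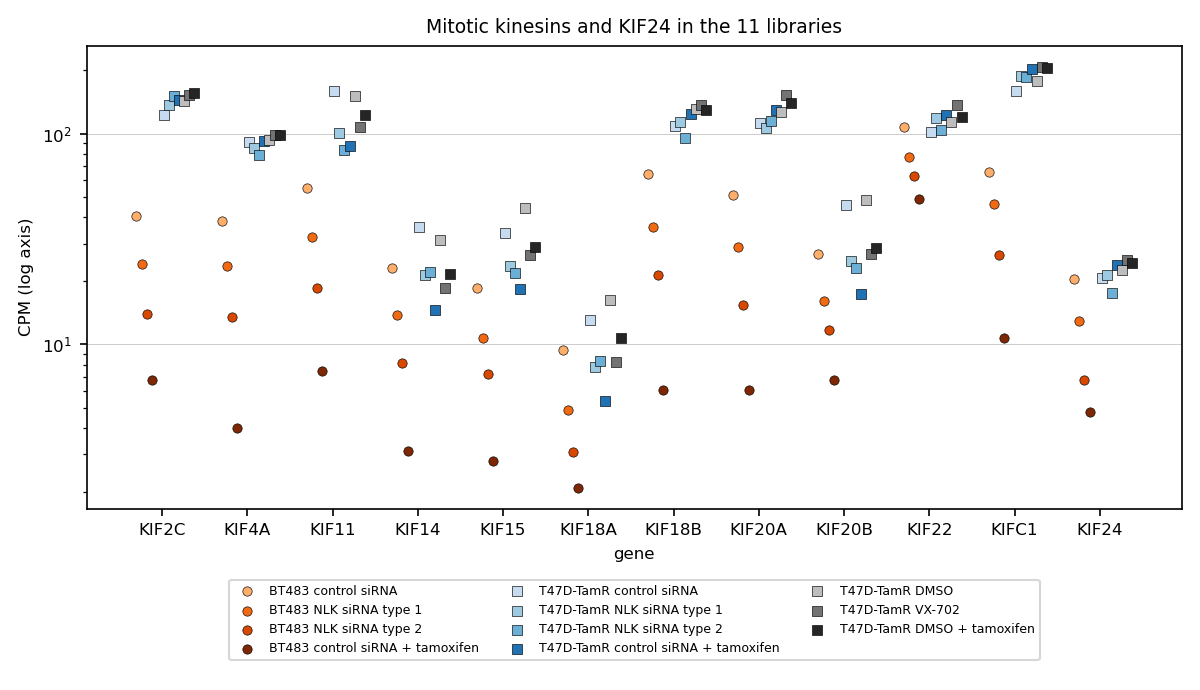
CPM on a log axis for the 11 mitotic kinesins and KIF24 in each of the 11 libraries; circles are BT483 and squares T47D-TamR, 1 library each. In BT483 the tamoxifen library is the lowest point for every gene shown, at 2.09 CPM for KIF18A to 49 CPM for KIF22, and both NLK siRNA libraries lie between it and the control.

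KIF24, a kinesin of the mother centriole that holds back cilium formation in cycling cells, was the 1 ciliary motor called. It went from 20.4 to 4.77 CPM (log2 fold change −2.10 ± 0.393 SE, edgeR adjusted p = 0.0166). A further 3 members had an unadjusted p under 0.05 only, which made 15 of 36 members against 8.67% of all genes tested. They were KIF26B (log2 fold change −1.27), the Hedgehog pathway kinesin KIF7 (−1.06, from 3.28 to 1.57 CPM) and the minus end transport motor KIFC3 (0.66, from 37.6 to 59.2 CPM). None of these 3 passed the adjusted test. The remaining 21 members lay between −0.87 (KIF26A) and 0.34 (KIF13B), with KIF5C the lowest transport motor at −0.52; the heavy chains KIF5B and DYNC1H1 stood at −0.10 and −0.04 and the ciliary pair KIF3A and KIF3B at 0.26 and 0.32.

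The partners of the mitotic kinesins were lower too. Of 27 spindle and mitotic genes outside the set, with a median of −2.75, 26 had a negative log2 fold change, against 51% of all genes tested. Called were 16 of the 27, against 1.49% of all genes tested. Examples are the Aurora kinase AURKB (−3.45) and MKI67, the gene of the proliferation antigen (−3.39). Of 14 genes that control mitotic transcription 6 were called, all lower, among them MYBL2 (−3.22) and FOXM1 (−2.89). The kinetochore kinesin CENPE, not a member of the set, fell by 2.50 on the log2 scale (edgeR adjusted p = 0.00538). Of 22 dynein and dynactin subunits 1 was called, the dynein regulator NDE1, which fell by 1.10 (edgeR adjusted p = 0.046). Among 20 genes of intraflagellar transport and 9 kinesin adaptors 0 were called, with medians of 0.07 and 0.19. An unadjusted p under 0.05 was found for 0 and 1 of them, against 8.67% of all genes tested. With 1.49% of all genes called, 0 or 1 call was the common outcome for lists of this size. DESeq2 called 12 of the 36 members for the same comparison, against 1.98% of all genes tested, and limma on the deposited log2 values called 0, against 0.0375%. The tested difference rests on 1 tamoxifen library and 1 control library.

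**Figure D2:**
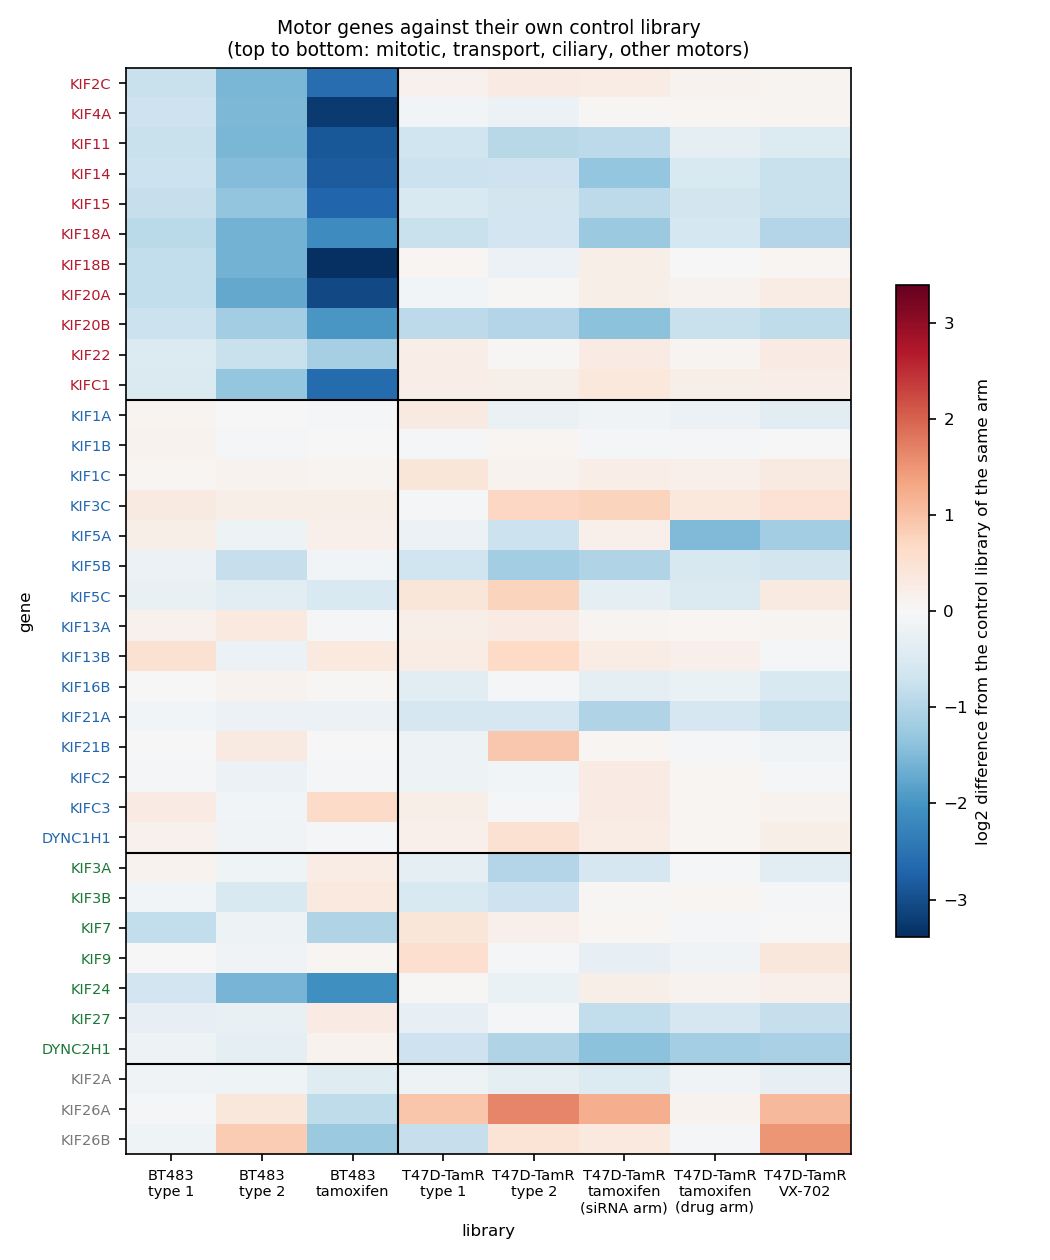
Log2 difference in CPM of each of the 36 members (rows) between a treated library and the control library of its own line and arm (columns), blue for lower and red for higher. The block of 11 mitotic kinesins is blue in all 3 BT483 columns, with KIF18B lowest at −3.39 under tamoxifen, while most transport motors stay near 0; in the 5 T47D-TamR columns the mitotic block is divided.

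Under tamoxifen in T47D-TamR no mitotic kinesin passed the adjusted test. Of 36 members 1 was called at an adjusted p under 0.05, DYNC2H1, against 0.221% of all genes tested. The median of the 11 mitotic kinesins was 0.05 and that of the 22 transport and ciliary motors −0.03, beside 0.03 over all genes tested. DYNC2H1, the heavy chain of the dynein that returns cargo from the ciliary tip, stood at 36.7 CPM in the control of the siRNA arm and at 13.8 CPM with tamoxifen. In the drug arm it stood at 36.4 CPM with DMSO and at 16.2 CPM with tamoxifen. Neither tamoxifen library reached either control (log2 fold change −1.29 ± 0.195 SE, edgeR adjusted p = 0.026). In BT483 the same gene stood at 21.2 CPM in the control and 23.1 CPM with tamoxifen.

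KIF20B was next, at 46 and 17.4 CPM in the siRNA arm and at 48.6 and 28.6 CPM in the drug arm (−1.08 ± 0.212 SE, edgeR adjusted p = 0.0563). It did not pass the adjusted test. Together, 9 of 36 members had an unadjusted p under 0.05 against 6.01% of all genes tested, all lower: KIF20B, KIF18A (−0.93), KIF14 (−0.91), KIF15 (−0.76) and KIF11 (−0.58) of the mitotic class, the transport motors KIF21A (−0.80) and KIF5B (−0.79), and the ciliary KIF27 (−0.71) and DYNC2H1. The other 6 mitotic kinesins were at or above their controls, from 0.05 for KIF4A to 0.28 for KIFC1. KIF2C, for example, stood at 123 and 145 CPM in the siRNA arm and at 142 and 155 CPM in the drug arm. KIF24 stood at 20.6 and 23.8 CPM in the siRNA arm. The highest transport motors were KIF3C (0.56), KIF13B (0.22) and KIF1C (0.19), none with an unadjusted p under 0.05. The 9 members with an unadjusted p under 0.05 became 4 without the control siRNA library and 3 without the tamoxifen library of the siRNA arm.

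Fibroblast markers moved within T47D-TamR too, at low levels. Of 6 tested under tamoxifen, with a median of −2.14, 5 had a negative log2 fold change, against 46.2% of all genes tested. An unadjusted p under 0.05 (edgeR) was found for 3, against 6.01% of all genes tested, and 0 were called. COL1A2, a fibrillar collagen gene, stood at 2.18 CPM with control siRNA and at 6.56 and 4.16 CPM with types 1 and 2, but at 0 to 0.36 CPM in the other 4 T47D-TamR libraries. VIM, the gene of vimentin, stood at 1.59, 2.29 and 2.3 CPM against 0 to 0.194 CPM, and COL3A1 at 1.23 to 2.13 CPM against 0 to 0.2 CPM. COL1A1, most of the summed fibroblast level, stood at 44.1 to 68.9 CPM in all 7. The control siRNA library thus held more of the low markers than the tamoxifen library beside it, and the part of this in the T47D-TamR differences was not tested.

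The 9 members with an unadjusted p under 0.05 for tamoxifen in T47D-TamR have transcripts of low GC content, at most 42.1%. The other members under 45% GC, KIF3A, KIF2A and KIF5C, stood at −0.30, −0.30 and −0.42. A limit of 45% GC, set after the values were seen, divided the mitotic kinesins into 5 with 34.2 to 41.2% GC (KIF11, KIF14, KIF15, KIF18A, KIF20B) and 6 with 46.4 to 58.9% GC. The first 5 had edgeR log2 fold changes of −1.08 to −0.58 under tamoxifen, and the other 6 of 0.05 to 0.28. The ranges did not overlap in any of the 5 treated T47D-TamR libraries. Both knockdown libraries and the tamoxifen library of the siRNA arm were set against the same control siRNA library. The VX-702 library and the tamoxifen library of the drug arm were set against the same DMSO library. The differences are thus not independent of each other. With VX-702 the first 5 lay between −0.985 and −0.476 and the other 6 between 0.0661 and 0.28, and with siRNA type 1 between −0.886 and −0.518 and between −0.0925 and 0.236. DYNC2H1, KIF5B and KIF27, at 38.4, 39.1 and 39.9% GC, and KIF21A at 42.1% belong to the same range of GC content. With offsets for transcript length and GC content, added after seeing the data, the first 5 came to −0.61 to −0.28 and the other 6 to −0.10 to 0.08. DYNC2H1 came to −0.91 and lost its call (edgeR adjusted p = 0.462). In BT483 both sets fell under tamoxifen, to −2.88 to −1.98 and to −3.41 to −1.12, and all 12 calls were made with the offsets too. The part of GC content in the T47D-TamR values was not tested beyond these offsets. The DYNC2H1 call was also lost without either control library or either tamoxifen library of T47D-TamR (adjusted p = 0.264 to 1), in the siRNA arm alone (0.281), with a filter of 10 counts per library (0.0844) and with limma (0.702).

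**Figure D3:**
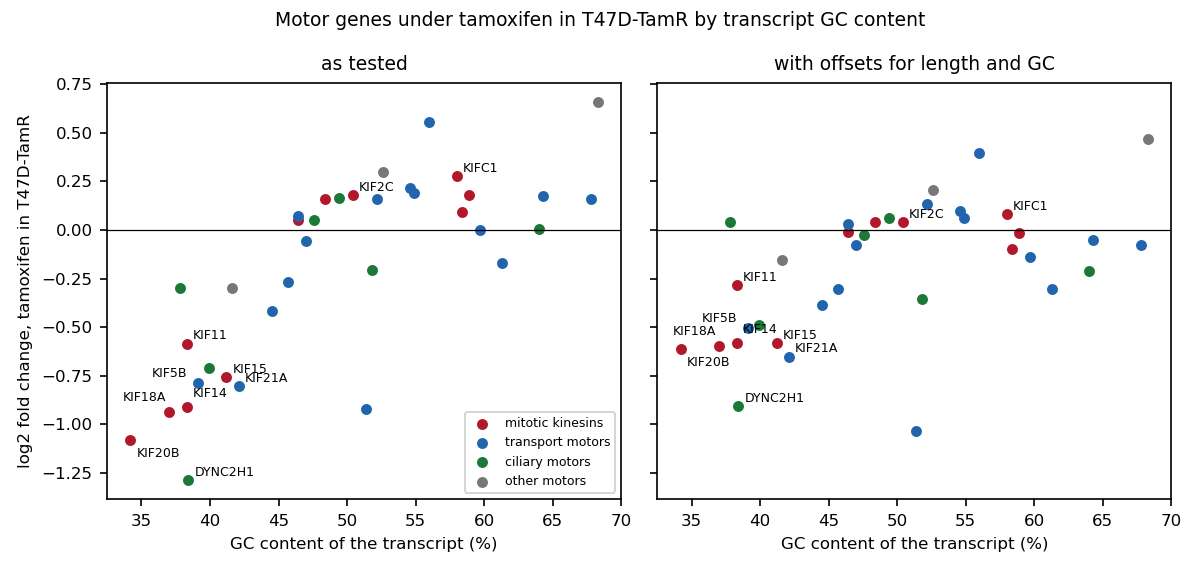
Log2 fold change under tamoxifen in T47D-TamR (edgeR, vertical) against GC content of the transcript (horizontal, %) for the 36 members, as tested (left) and with offsets for length and GC (right); points are genes, coloured by class. On the left the 5 mitotic kinesins under 45% GC lie between −1.08 and −0.58 and the other 6 between 0.05 and 0.28; on the right the 5 lie between −0.61 and −0.28.

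The difference between the lines in the tamoxifen response was itself tested. For 8 of 36 members it was called, against 0.691% of all genes tested, and all 8 were lower in BT483 relative to T47D-TamR. They were 7 mitotic kinesins and KIF24. KIF18B had the largest difference (−3.50 ± 0.407 SE, edgeR adjusted p = 0.00276), followed by KIF4A (−3.32), KIF20A (−3.23), KIFC1 (−2.89), KIF2C (−2.77), KIF24 (−2.26), KIF15 (−1.97) and KIF22 (−1.30). The median over the 11 mitotic kinesins was −2.29 and over the transport and ciliary motors 0.12, beside −0.01 over all genes tested. At an unadjusted p under 0.05 there were 15 members against 8.7% of all genes tested. These added KIF11 (−2.29), KIF14 (−1.95), KIF18A (−1.23), KIF20B (−0.89) and KIF26A (−1.53), and in the other direction DYNC2H1 (1.41, edgeR adjusted p = 0.0829) and KIF27 (0.98). The T47D-TamR libraries of the tamoxifen pairs were control siRNA, control siRNA with tamoxifen, DMSO, and DMSO with tamoxifen. Without any 1 of these 4 libraries 0 members were called, against 0 to 0.0376% of all genes tested. The loss of calls thus ran over all genes and was not particular to the members. The median of the mitotic kinesins stayed between −2.58 and −1.93.

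Averaged over both lines, tamoxifen gave 1 call among the members, KIF20B (−1.36 ± 0.205 SE, edgeR adjusted p = 0.0334), against 0.0416% of all genes tested. At an unadjusted p under 0.05 there were 9 members against 6.62% of all genes tested, with KIF14 (−1.48), KIF18A (−1.31), KIF15 (−1.30), DYNC2H1 (−0.81), KIF21A (−0.60), KIF5B (−0.56), KIF2A (−0.33) and KIFC3 (0.34) beside KIF20B. KIF20B, a kinesin of cytokinesis, stood at −1.98 in BT483 and −1.08 in T47D-TamR. Its call was lost without the BT483 tamoxifen library (adjusted p = 0.0651), without either T47D-TamR library of the siRNA arm tamoxifen pair (0.305 and 0.173), without either T47D-TamR knockdown library (0.0701 and 0.0514) and with offsets for length and GC (0.47).

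Knockdown of NLK in BT483 gave lower values for every mitotic kinesin in both siRNA libraries, but no member passed the adjusted test. With edgeR 0 of 36 members were called, against 0.00416% of all genes tested, and DESeq2 and limma also called 0. At an unadjusted p under 0.05 there were 12 members against 3.39% of all genes tested: all 11 mitotic kinesins, from −1.26 (KIF18A) to −0.60 (KIF22) with a median of −1.08, and KIF24 (−1.07). Their adjusted p ran from 0.698 to 1. The transport and ciliary motors had a median of 0.01. The transport and ciliary motors with the highest values were KIF13A and KIF3C (both 0.25) and KIF13B (0.19), and the lowest beside KIF24 were KIF5B (−0.46) and KIF7 (−0.44). The knockdown and tamoxifen comparisons in BT483 share 1 control library.

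KIF20A stood at 51.1 CPM in the control library, at 28.8 CPM with type 1 and at 15.4 CPM with type 2. KIF11 stood at 54.9, 32.4 and 18.5 CPM in the same order, and KIF18B at 64.3, 36.2 and 21.3 CPM. KIF24 followed the same order at 20.4, 12.9 and 6.76 CPM. For all 12 genes the type 2 library was below the type 1 library and the tamoxifen library was below both. The median log2 difference of the mitotic kinesins was −0.76 with type 1, −1.51 with type 2 and −2.69 with tamoxifen, side by side and against the same control library. NLK itself was at 28.4% of control with type 1 and at 18% with type 2. Of 27 spindle and mitotic partners 26 had a negative log2 fold change (edgeR, median −1.05), against 49.2% of all genes tested. An unadjusted p under 0.05 was found for 21, against 3.39% of all genes tested. CCNB2, cyclin B2, stood at −1.25 (edgeR adjusted p = 0.843). Without the type 1 library 8 members were called, against 0.628% of all genes tested.

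In T47D-TamR the knockdown left the mitotic class divided as under tamoxifen, in comparisons that share the control siRNA library. With edgeR 0 of 36 members were called, against 0.00416% of all genes tested, and DESeq2 and limma also called 0. At an unadjusted p under 0.05 there were 8 members against 5.71% of all genes tested: DYNC2H1 (−0.80), KIF5B (−0.79), KIF20B (−0.79), KIF11 (−0.66), KIF3B (−0.60), KIF15 (−0.51), KIF21A (−0.45) and, higher, KIF26A (1.02). Without the control siRNA library 1 member, and no lower mitotic kinesin, had an unadjusted p under 0.05. There were 5 without the type 2 library and 5, with no lower mitotic kinesin among them, with offsets for length and GC. KIF5B, the ubiquitous heavy chain of conventional kinesin, stood at 249 CPM in the control, at 156 CPM with type 1 and at 110 CPM with type 2. In BT483 it stood at 263, 229 and 153 CPM. KIF2C stood at 123, 136 and 150 CPM in T47D-TamR. The median of the mitotic kinesins was −0.13 (edgeR).

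The difference between the lines in the knockdown response gave 0 calls with edgeR, DESeq2 or limma, against 0% of all genes tested with edgeR. At an unadjusted p under 0.05 there were 8 members against 3.06% of all genes tested, all lower in BT483: KIF2C (−1.30), KIF20A (−1.18), KIF18B (−1.06), KIFC1 (−1.05), KIF24 (−0.97), KIF4A (−0.94), KIF5C (−0.88) and KIF22 (−0.69). Leaving out 1 library at a time gave 1 to 11 members with an unadjusted p under 0.05: 1, with no lower mitotic kinesin, without the control siRNA library of T47D-TamR, 11 without the type 1 library of BT483, 4 without the DMSO with tamoxifen library, and 5 without the type 2 library of BT483, the T47D-TamR tamoxifen library of the siRNA arm or the DMSO library. Over both lines, edgeR, DESeq2 and limma called 0 members for knockdown, against 0.00416% of all genes tested with edgeR. There, 6 members had an unadjusted p under 0.05 against 5.54% of all genes tested: KIF18A (−0.81), KIF20B (−0.81), KIF5B (−0.70), DYNC2H1 (−0.69), KIF3B (−0.47) and KIF21A (−0.36). That count was 3 without the control siRNA library of T47D-TamR and 12 without the tamoxifen library of BT483. The median of the mitotic kinesins over both lines was −0.54, and 0.18 without the control library of BT483.

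Between the 2 siRNAs, type 2 was lower than type 1 for all 11 mitotic kinesins when averaged over the lines, with a median log2 fold change of −0.35. All 11 were lower with type 2 in BT483, but in T47D-TamR the class was divided. There KIF2C (136 and 150 CPM with types 1 and 2), KIF20A (106 and 115), KIF14 (21.4 and 22) and KIF18A (7.77 and 8.33) were higher with type 2. The other mitotic kinesins were lower with type 2 in T47D-TamR. No mitotic kinesin had an unadjusted p under 0.05. edgeR, DESeq2 and limma called 0 of 36 members, against 0.47% of all genes tested with edgeR. At an unadjusted p under 0.05 there were 5 members against 9.12% of all genes tested: KIF5B (−0.54), KIF3A (−0.45), KIF3B (−0.32), KIF21B (0.65) and KIF26B (1.07). That count was 8 without the BT483 tamoxifen library, 2 without the BT483 type 2 library, and 3 without either T47D-TamR knockdown library or the DMSO with tamoxifen library. KIF3A, a subunit of the ciliary kinesin, stood at 41.4 CPM with type 1 and 26.1 CPM with type 2 in T47D-TamR, and at 73.6 and 61.4 CPM in BT483.

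VX-702 was given to 1 T47D-TamR library, which was set against the DMSO library as a description; no test was run. Genes with a mean of at least 5 CPM were compared. Of the 29 members measured 7 were lower by more than 1.5-fold, against 3.93% of all genes measured, and 0 were higher, against 1.38%. The 7 were DYNC2H1 (log2 difference −1.10, 36.4 to 17 CPM), KIF18A (−0.985), KIF20B (−0.85), KIF14 (−0.758), KIF15 (−0.743), KIF21A (−0.743) and KIF5B (−0.627). All 7 have transcripts under 45% GC, and with the length and GC offsets 2 of them stayed past 1.5-fold. The remaining mitotic kinesins with more GC lay between 0.0661 (KIF18B) and 0.28. This comparison shares the DMSO library with the drug arm tamoxifen comparison. Control siRNA against DMSO gave 0 of 28 members past 1.5-fold, against 1.25% of all genes measured lower and 2.8% higher.

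The lines differed in the level of most motors. Between BT483 and T47D-TamR, over the 8 libraries of the siRNA arm, 33 of 36 members were called, 15 higher and 18 lower in BT483, against 70.7% of all genes tested, so a call was the common outcome for any gene. KIF1A, a vesicle motor best known from neurons, stood at 318 to 351 CPM in the 4 BT483 libraries and at 0.564 to 1.28 CPM in the 7 of T47D-TamR (edgeR log2 fold change 8.94 ± 0.161 SE, adjusted p = 4.44e-11). The neuronal heavy chain KIF5A stood at 10.5 to 13.4 CPM against 0.0868 to 0.48 CPM (6.12), and its relative KIF5C at 21.6 to 31 CPM against 1.43 to 3.08 CPM (3.59). KIF26B, a kinesin without motor activity that acts in Wnt signalling, stood at 10.3 to 45.6 CPM against 0.0766 to 0.377 CPM, the latter from 2 to 9 counts per library, so that its fold change is uncertain. The summed level of 5 neuronal markers was 71.9 to 93.7 CPM in BT483 and 27.7 to 43.8 CPM in T47D-TamR. SYT1 gave most of the BT483 sum, at 42.2 to 70.4 CPM. MAP2 went the other way, at 5.21 to 12.8 CPM in BT483 and 14.4 to 22.4 CPM in T47D-TamR. Of the 5 markers 3 were called higher and 1 lower in BT483. The part of these markers in the motor gene differences was not tested.

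Higher in BT483 were also KIF21B (2.60), KIF3C (2.15), KIF27 (2.02), KIF26A (1.74), the minus end motor KIFC2 (1.69) and the endosome motor KIF16B (1.52). With the length and GC offsets KIF26A came to 0.63 and KIFC2 to 0.94. Lower in BT483 were KIF7 (−1.83), KIF13B (−1.26), the dynein heavy chain DYNC1H1 (−1.17), KIF9 (−0.93), KIFC3 (−0.91) and KIF1B (−0.80). DYNC1H1 stood at 453 to 543 CPM in BT483 and 881 to 1350 CPM in T47D-TamR. The 3 members not called were KIF1C (−0.25), KIF3B (0.11) and DYNC2H1 (−0.11). Over all 11 libraries the CPM ranges of the lines did not overlap for 24 of 36 members, 12 higher and 12 lower in BT483, against 60.7% of all genes tested (30.4% higher and 30.3% lower).

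**Figure D4:**
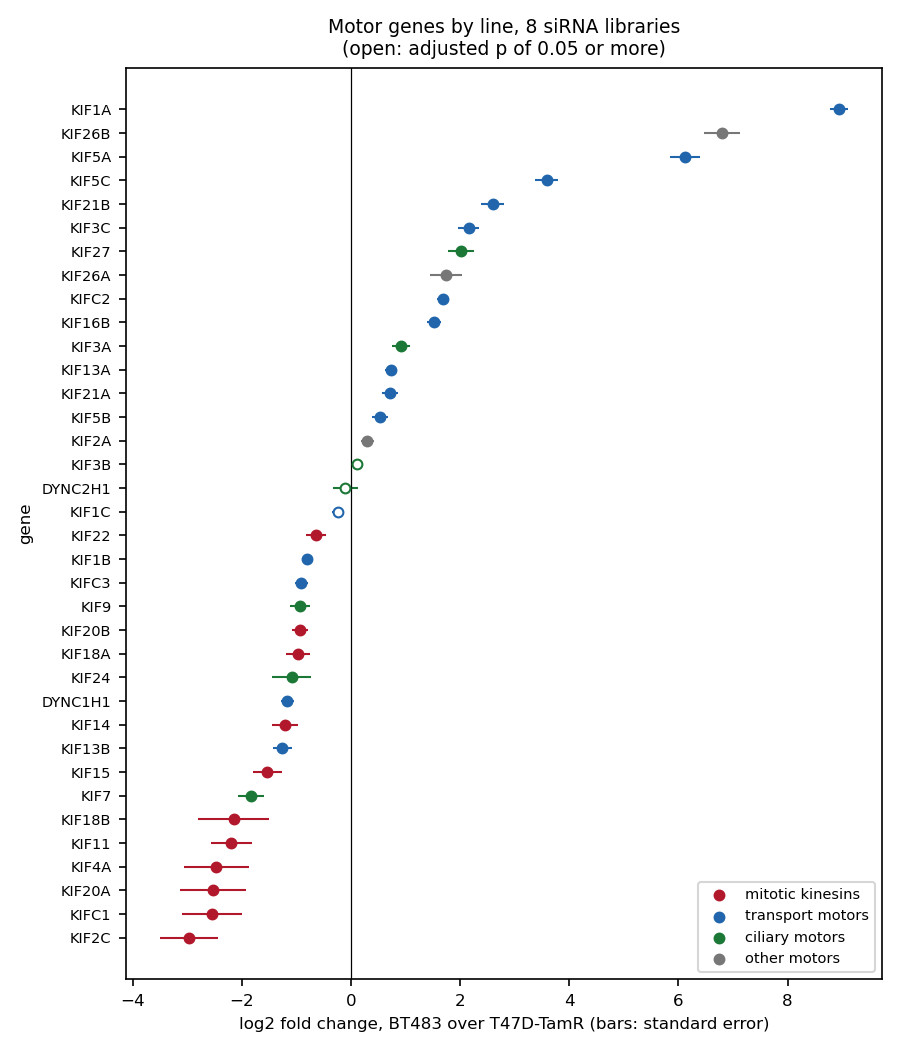
Log2 fold change of BT483 over T47D-TamR for the 36 members (edgeR, 8 libraries of the siRNA arm), with standard errors as bars, filled where the adjusted p is under 0.05 and coloured by class. The 11 mitotic kinesins lie between −2.96 (KIF2C) and −0.65 (KIF22), and the transport motors spread from −1.26 (KIF13B) to 8.94 (KIF1A).

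All 11 mitotic kinesins were called lower in BT483, from −2.96 ± 0.53 SE (KIF2C, edgeR adjusted p = 0.00627) to −0.65 (KIF22), with a median of −2.15. This average includes the tamoxifen and knockdown libraries, in which the class was low in BT483. Under the alternative fits the calls of KIF18B, KIF4A, KIF20A, KIFC1 and KIF2C were lost in 8, 7, 6, 5 and 4 settings. KIF11 kept its call in all 15, and the others lost it in 1 or 2. Without any 1 of the 4 knockdown libraries, 7 mitotic kinesins were lower with an unadjusted p under 0.05 (edgeR). In the 2 control siRNA libraries alone 10 of 11 were lower in BT483, with a median log2 difference of −0.85 (pseudocount 0.1 CPM) and no test. Per transcript length, the mitotic kinesins summed to 354 TPM (transcript counts scaled for length and depth) in the BT483 control and to 71 TPM with tamoxifen, and to 571 to 723 TPM across T47D-TamR. They made up 29% of the summed TPM of the 36 members in the BT483 control, 20.8% and 16% with siRNA types 1 and 2, 7.92% with tamoxifen, and 53.5 to 59.6% in T47D-TamR. The transport motors made up 57.9 to 74.4% in BT483 and 30.8 to 36% in T47D-TamR, and the ciliary motors 10.1 to 14.9% and 6.79 to 9.61%.

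Within related genes the shares also differed between the lines, on the TPM scale. Of KIF1A, KIF1B and KIF1C together, KIF1C was the main form in both lines, at 50.5 to 53.2% in BT483 and 79 to 84.7% in T47D-TamR. KIF1A gave 39.1 to 41.6% in BT483 and 0.0948 to 0.247% in T47D-TamR. Of the minus end kinesins KIFC1, KIFC2 and KIFC3, KIFC2 gave 78.1 to 90.1% in BT483, and the mitotic KIFC1 gave 60.1 to 67.6% in T47D-TamR. KIF13A gave 70.8 to 82.1% of the pair with KIF13B in BT483 and 36.8 to 45.8% in T47D-TamR. The conventional kinesin heavy chain KIF5B was the main form in both lines, at 85.9 to 90.3% and 98.2 to 99.5%. The highest member per transcript length was KIFC2 in control BT483, at 277 TPM, and KIFC1 in control T47D-TamR, at 141 TPM.

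**Figure D5:**
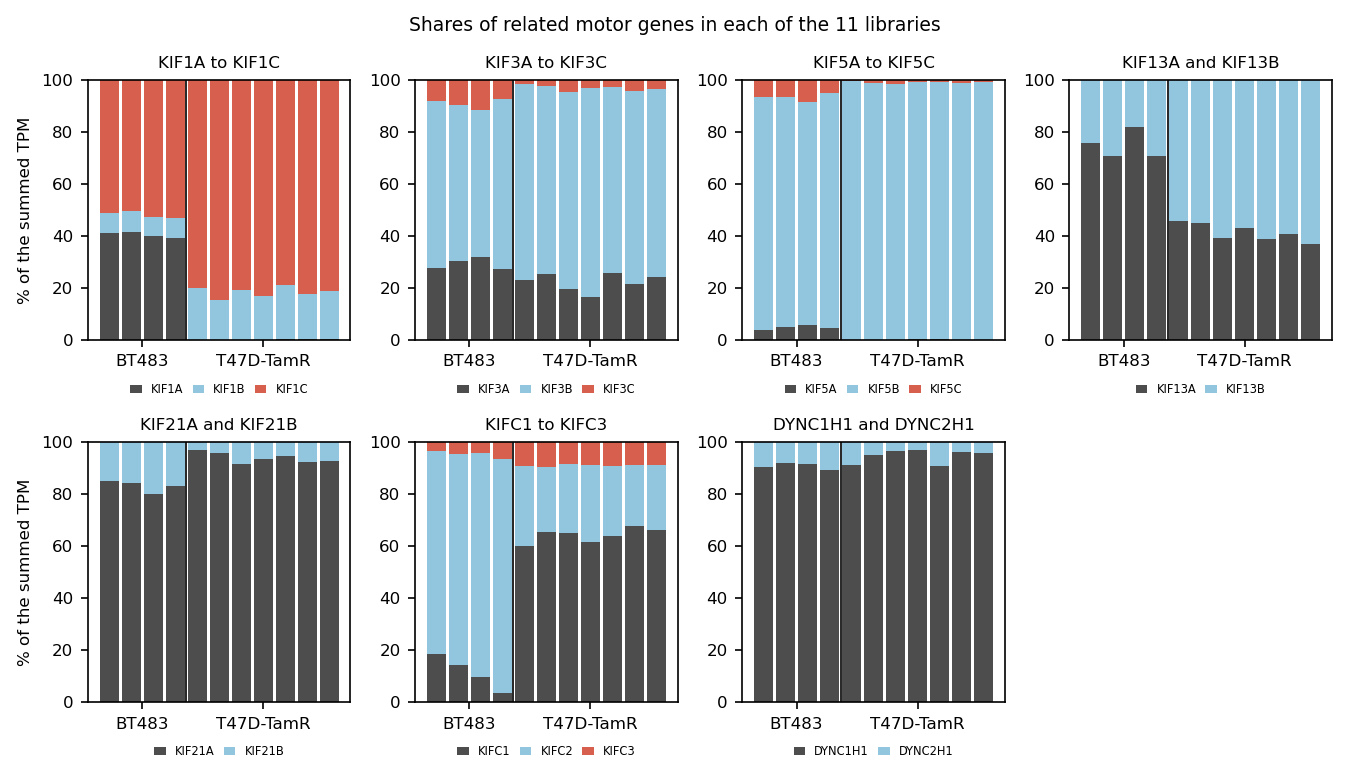
Share of the summed TPM of related genes (vertical, %) in each of the 11 libraries, 4 of BT483 left of the line and 7 of T47D-TamR right of it; bars are single libraries in the order control siRNA, siRNA type 1, siRNA type 2, tamoxifen, then for T47D-TamR DMSO, VX-702 and DMSO with tamoxifen. KIF1A, at 39.1 to 41.6% in BT483, is barely visible in T47D-TamR, and KIFC1 passes from at most 18.6% to at least 60.1%.

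Many partners of the transport and ciliary motors differed by line, as did most genes. KIFAP3, the cargo subunit of the ciliary kinesin, was higher in BT483 (edgeR log2 fold change 1.95), as was WDR60, an intermediate chain of the ciliary dynein (2.47). WDR34, the other intermediate chain of that dynein, went the other way, at 75.3 to 103 CPM in BT483 and 239 to 310 CPM in T47D-TamR. The dynein intermediate chain DYNC1I1 was lower in BT483 (−2.45), at low levels of 0.322 to 1.19 CPM against 3.75 to 4.39 CPM in T47D-TamR. The more abundant intermediate chain DYNC1I2 was higher in BT483, at 40.4 to 49.2 CPM against 19.5 to 26.6 CPM. Of 20 intraflagellar transport genes 11 were called higher and 5 lower in BT483, and of 22 dynein and dynactin subunits 5 higher and 10 lower. Of the 6 markers of multiciliated cells 5 were tested, and all 5 were called higher in BT483 (median 2.20). The 6 summed to 39.6 to 42.6 CPM in BT483 and 9.63 to 17.7 CPM in T47D-TamR. The part of these markers in the ciliary motor differences was not tested. Of the kinesins outside the set, KIF12 had a log2 fold change of 7.29 and STARD9 of 2.58. These counts stand beside the 70.7% of all genes that were called, so a call was the common outcome for these lists too.

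Some counts of the members may be shared with other genes. KIF4B, a near-identical copy of KIF4A, was counted at 0.112 to 2.8 CPM, and KIF9-AS1, antisense to KIF9, at 1.46 to 2.97 CPM. The values of KIF4A are uncertain because the handling of reads that match both copies is not known here, and those of KIF9 because it is not known whether counting used the strand.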

How the data were processed

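For each of 11 stranded poly(A) libraries (per the labels' protocols) the authors deposited raw counts by gene symbol and log2 TPM values. The build was GRCh38, per the submitters' processing notes; aligner, annotation and strand setting were not given in the sources used here. A deposited table of log2 TPM values for all libraries, with sorted values that differed by at most 0.108 between libraries, served limma. All columns were matched by name, with 0 left unmapped.

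The members, classes and lists were chosen with earlier results of these data known. Counts were tested with edgeR 4.0.16 (R 4.3.3): TMM scaling (factors 0.937 to 1.06), filterByExpr, and the robust quasi-likelihood F test (2-sided). P-values were adjusted by Benjamini and Hochberg's method over the 24023 genes tested (21990 for the line), with a threshold of 0.05. The fit of all 11 libraries had context (line and arm) as a block, with knockdown, tamoxifen and VX-702 as terms, over both lines, per line or with a term for siRNA type 2; the line fit took 8 libraries blocked by condition. A lone library was assumed to vary like the others, with 3 to 5 residual degrees of freedom and biological coefficients of variation of 0.162 to 0.179. These made 10 tests across genes. VX-702 and control siRNA against DMSO (log2 CPM, prior count 2, 1.5-fold, at least 5 CPM) had no test. Intervals for ratios are exact 95% intervals and cover counting error only.

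Named were all members called or with an unadjusted p under 0.05, the 3 highest and lowest per class group, and up to 4 genes of each list. Alternatives were DESeq2 1.42.0, limma 3.58.1, other filters, scaling, blocks and libraries and, added after seeing the data, offsets for transcript length and GC content. Scripts were tested on simulated data. One kinesin gene is not reported here.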

Additional observations from a re-analysis of the deposited data

Results flagged for a closer look

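The tamoxifen response differed between the lines, by the edgeR test of the difference itself, for 8 members. As log2 fold change in BT483 minus that in T47D-TamR, the values were −2.77 for KIF2C (adjusted p = 0.00649), −3.32 for KIF4A (0.00266), −1.97 for KIF15 (0.0271), −3.50 for KIF18B (0.00276), −3.23 for KIF20A (0.0104), −1.30 for KIF22 (0.0448), −2.89 for KIFC1 (0.00716) and −2.26 for KIF24 (0.0498). BT483 gave 1 tamoxifen library and T47D-TamR 2, and T47D-TamR had been kept in tamoxifen beforehand, so line and earlier exposure cannot be told apart.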

How the results depend on the processing

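Among 850 results for single members under the alternatives, 695 kept their call and direction, 155 lost the call in the same direction and 0 reversed; 493 of them concern the line (442 kept, 51 lost), 192 tamoxifen in BT483 (166 and 26), 128 its difference between lines (67 and 61), 19 tamoxifen in both lines (10 and 9) and 18 in T47D-TamR (10 and 8). Members called without a filter on low counts numbered, with the share of all genes called, 9 (0.603%, knockdown, both lines), 13 (1.24%, tamoxifen, both lines), 11 (0.395%, knockdown in BT483), 1 (0.261%, knockdown in T47D-TamR), 1 (0.0508%, its difference between lines) and 8 (0.857%, tamoxifen in T47D-TamR, mitotic median 0.0127). DESeq2 called 4 for tamoxifen in both lines (0.5% of all genes) and 3 in T47D-TamR (0.674%). limma called 0 for tamoxifen in both lines, in BT483 (median −2.44), in T47D-TamR (median −0.0219) and for the difference (median −2.05). Of all genes it called 0%, 0.0375%, 0% and 0.00417% in the same order. With a filter of 10 counts per library the calls for tamoxifen were 0 in both lines (0%), 0 in T47D-TamR (0%) and 5 for the difference (0.791%). Without the block for context they were 0 in both lines (0%), and with library totals alone 2 in T47D-TamR (0.35% of all genes, median 0.0039). The siRNA arm alone gave 0 for tamoxifen in T47D-TamR (median −0.0072) and 0 for the difference (median −1.93), each with 0% of all genes called. The length and GC offsets gave 0 for tamoxifen in both lines (0.0214% of all genes) and 0 in T47D-TamR (0%, median −0.0977). They gave a median of −2.52 for the difference and of −0.254 for knockdown in T47D-TamR, and 2 members past 1.5-fold with VX-702 (median −0.134). The deposited log2 values gave a VX-702 median of −0.0515. Where not stated otherwise, the cause was not tested. For the alternative fits, the share of all genes with an unadjusted p under 0.05 was not taken. The counts of members at that threshold there are thus not set against all genes. Leaving out 1 library at a time gave 0 to 0 calls for knockdown in both lines (median −0.80 to 0.18), 0 to 8 in BT483 (−1.50 to −0.76), 0 to 0 in T47D-TamR (−0.25 to −0.10) and 0 to 0 for the difference (−0.98 to −0.55). For tamoxifen it gave 0 to 2 calls in both lines (−1.39 to −0.14), 9 to 12 in BT483 (−2.73 to −2.69, a range fixed by the 1 control and 1 tamoxifen library of BT483, which cannot be left out there or in the difference; nor can that control for knockdown in BT483 and its difference), 0 to 2 in T47D-TamR (−0.0532 to 0.0537) and 0 to 10 for the difference (−2.58 to −1.93). It gave 0 to 1 for the siRNAs (−0.69 to −0.10) and 25 to 33 for the line (−2.43 to −1.49). For knockdown the shares of all genes called were 0 to 0.00845% in both lines, 0 to 0.628% in BT483, 0 to 0.0961% in T47D-TamR and 0 to 0.0211% for the difference. For tamoxifen they were 0 to 0.341%, 0.795 to 2.01%, 0 to 0.418% and 0 to 1.14% in the same order. They were 0 to 1.72% for the siRNAs and 61.9 to 65.8% for the line. No paired analysis was possible because each group held 1 library, so that no replicate numbers could be paired; pairs of conditions entered through the blocks for context and, for the line, condition. Depth limited KIF5A and KIF26B in T47D-TamR, whose counts lay near the floor of 3 counts.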
